A study of Homo sapiens with 9 samples.

Results

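The comparison described here sets MDA-MB-231 cells that received the first of a pair of small interfering RNAs (siRNAs) against KDM5A, called KD1, against cells that received an siRNA against luciferase, called Luc. MDA-MB-231 is an established line of mesenchymal human breast cancer cells without the estrogen receptor. Luciferase is a reporter enzyme that these cells do not make, so the Luc cells share the transfection but not the target. A further group, KD2, received the second siRNA against KDM5A and is used here only to ask whether a gene differed between the KD1 and KD2 arrays. Total RNA was taken 72 h after transfection in all 3 groups, labelled with biotin and hybridised to Illumina bead arrays, with 3 arrays per group. The members are the probes whose detection p-value lay under 0.05 on at least 3 of the 6 KD1 and Luc arrays, which held for 14801 of 48799 probes and gave 9736 of the 18850 genes with a symbol on the array. Of these, 11774 were detected on all 6 arrays and 1210 on exactly 3, with a median log2 intensity of 8.21 and 5.16, while the 2230 probes detected on exactly 2 arrays had a median of 5.00. Of the probes that passed, 280 were detected on every Luc array and no KD1 array and 36 the other way round, so these had to differ to pass.

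KDM5A, also called RBP2 or JARID1A, is a histone demethylase. It erases methylation at lysine 4 of histone H3, a mark found at active promoters, and it is known as a partner of the retinoblastoma protein and for its part in drug tolerance of cancer cells. Through that activity it can act as a repressor of the genes it occupies, and part of the cell cycle and mitochondrial genes are known among its targets. The level of KDM5A and so the extent of its knockdown are not analysed here, since its symbol was on none of the annotated probes used.

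Between 14529 and 15110 probes were detected on a KD1 array and between 15679 and 17538 on a Luc array. Pearson correlations over the tested probes were 0.985 to 0.989 between arrays of the same group and 0.967 to 0.972 between KD1 and Luc arrays. The Luc arrays took positions A, C and E of 1 slide and those of KD1 positions G, I and K, so an effect of position cannot be told apart from that of KD1. Separate cultures behind the arrays of a group are not stated in the labels, so the p-values rest on the spread between these arrays alone, and that spread may be technical. All 11 markers of the cell line that were looked up were measured, with a mean log2 intensity of 10.94 to 11.08 per Luc array and 10.46 to 10.52 per KD1 array, and 5 of them fell (3 under median scaling between arrays). Of 11 luminal breast markers on the array, ESR1, PGR and FOXA1 were detected on no array. XBP1, KRT8, KRT18, KRT19 and ERBB3 were measured, and these 5 were detected on all 3 arrays of both groups. The mean log2 intensity over the luminal markers was 6.66 to 6.84 per Luc array. Of 13 leukocyte markers on the array 2 were measured, of which CD14 fell by 1.15, and of 10 fibroblast markers only PDGFRA was. The mean log2 intensity over the leukocyte markers was 4.87 to 4.95 per Luc array and 4.76 to 4.89 per KD1 array.

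With KD1, 2713 probes (18.3%) passed an adjusted p of 0.05 in limma's moderated test, 1193 of them higher (8.06%) and 1520 lower (10.3%). A change of at least 1 on the log2 scale, which is 2-fold, was reached by 602 probes (4.07%). By gene, with the brightest tested probe standing for each gene, 1932 of 9736 genes changed (19.8%), 821 higher (8.43%) and 1111 lower (11.4%). Larger changes leaned further to the lower side. A change of at least that size was seen for 411 genes (4.22%), 134 of them higher and 277 lower, and of at least 2 for 5 higher and 18 lower genes. The median log2 fold change was 0.67 among genes called higher and -0.76 among genes called lower, and the smallest change called was 0.37 in size on either side. The lean in the count of probes depended on the filter. When only the 11774 probes detected on all 6 arrays were tested, 1354 were higher and 1397 lower. The lean among larger changes was not tested with that filter. Among called genes, 85 lower ones were detected on every Luc and no KD1 array and 14 higher ones the other way round. These genes had to differ to pass. Median scaling in place of quantile normalization turned the balance of probes to 1683 higher and 1193 lower, and moved the median log2 fold change of all probes from 0.01 to 0.10. Smaller changes are therefore read below relative to all genes, and no named gene changed direction under that scaling. The 3 KD1 and 3 Luc arrays did not overlap for 3796 genes (39%), more than the 1932 that were called. In 4 bins of equal size by intensity, from dimmest to brightest, 12.7%, 21.2%, 24.8% and 20.7% of genes were called.

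**Figure D1:**
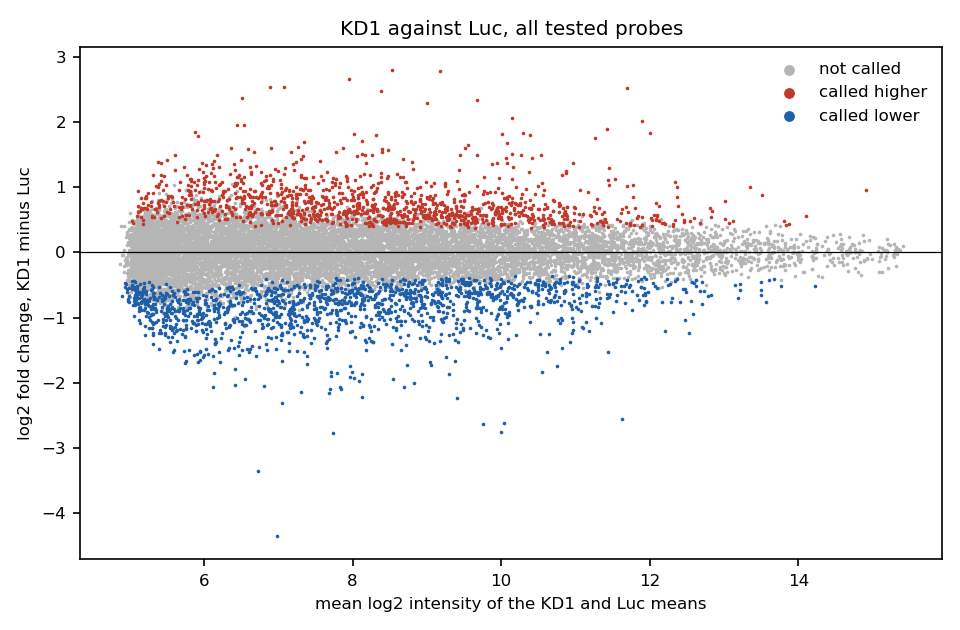
Log2 fold change of KD1 over Luc (vertical axis) against mean log2 intensity (horizontal axis) for the 14801 tested probes, with probes called higher in red, called lower in blue and not called in grey. The 1520 lower calls outnumber the 1193 higher ones, and the lower side reaches -4.34 while the higher side ends below 3.

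HMOX1, the inducible heme oxygenase that breaks down heme, had the largest rise of any named gene by its brightest probe. It read 6.76, 6.46 and 6.64 in log2 intensity on the Luc arrays and 9.23, 9.26 and 9.35 on the KD1 arrays. All KD1 arrays lay above all Luc arrays, and the gene was 6.31-fold higher (log2 fold change 2.66, SE 0.13, adjusted p = 1.23e-05). TM4SF19, a gene of the L6 family of tetraspan membrane proteins, read 5.40, 5.89 and 6.12 with Luc and 8.53, 8.39 and 8.12 with KD1. It was 5.82-fold higher with no overlap of the groups (log2 fold change 2.54, SE 0.20, adjusted p = 5.61e-05). PTPRR, a tyrosine phosphatase that inactivates MAP kinases, read 7.07, 7.38 and 7.01 with Luc and 9.39, 9.91 and 9.56 with KD1, a rise of 2.47 (SE 0.24, adjusted p = 0.000192). A second, dimmer PTPRR probe, detected on 1 of 3 Luc arrays, was at 0.28 and was not called.

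The rest of the 20 highest genes rose by 1.54 to 2.33, with adjusted p-values of at most 0.00248. Among them, the histone genes H2AC18, H1-2, H2BC21 and H2AC20 rose by 2.07, 1.83, 1.79 and 1.64. The small nucleolar RNA SNORD13 and the small Cajal body RNA SCARNA9, members of the families of RNAs that guide the modification of ribosomal and spliceosomal RNA, rose by 1.67 and 1.54. RRAD, a small GTPase that restrains calcium channels, rose by 1.95 on its brighter probe and by 2.36 on the other. TRAF1, an adaptor of tumour necrosis factor receptors, rose by 1.58, and ZC3H12A, an endoribonuclease that degrades cytokine mRNAs, by 1.62.

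FTH1P3, a pseudogene of the ferritin heavy chain, rose by 2.33, and because its sequence is close to that of FTH1 the source of its signal is uncertain. SLC47A1, a transporter that exports organic cations, read 6.26, 5.95 and 6.10 with Luc and 7.74, 7.71 and 7.67 with KD1. TBXAS1, the thromboxane synthase, rose by 1.84 and H2BC21 by 1.79 from a level at which each was detected on 1 of 3 Luc arrays. The other genes of this group were OTUB2, a deubiquitinase, RBPMS2, an RNA-binding protein, CDC42SE2, an effector of the GTPase CDC42, the antisense RNA ATP2B1-AS1 and the kinase STK10, with rises of 1.54 to 1.81. The second CDC42SE2 probe, detected on 1 of 3 Luc arrays, was at 0.34 and was not called.

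The strongest fall was that of SPINK4, a secreted serine protease inhibitor of the Kazal type. It read 9.55, 9.17 and 8.76 on the Luc arrays and 4.67, 4.80 and 4.99 on the KD1 arrays, where it was detected on none. Measured against the detection floor of those arrays it was at least 15.3-fold lower (log2 fold change -4.34, adjusted p = 1.23e-05). MATN2, a matrilin of the extracellular matrix, read 8.72, 8.30 and 8.17 with Luc and 5.11, 5.43 and 4.63 with KD1, a fall to a level detected on 1 of 3 arrays (log2 fold change -3.34, SE 0.23, adjusted p = 3.97e-05). IGFBP3, which binds insulin-like growth factors in the extracellular space, read 9.30, 9.00 and 9.05 with Luc and 6.25, 6.62 and 6.20 with KD1. It was 6.78-fold lower (adjusted p = 1.87e-05), its second probe fell by 2.31, and no KD1 array came within 2 log2 units of a Luc array on the brighter probe.

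IGFBP4, a further binding protein of the growth factors, was among the brightest of the strongly lowered genes. It read 12.92, 12.65 and 13.15 with Luc and 10.12, 10.64 and 10.28 with KD1, which is 5.90-fold lower (adjusted p = 4.12e-05). TMX1, a membrane-bound thioredoxin-like enzyme of the endoplasmic reticulum, read 11.28, 11.53 and 11.32 with Luc and 8.75, 8.55 and 8.56 with KD1. It fell by 2.75 (SE 0.16, adjusted p = 1.87e-05). MCFD2, a partner of the cargo receptor that carries coagulation factors from the endoplasmic reticulum to the Golgi, fell from 11.46, 11.22 and 11.37 to 8.79, 9.00 and 8.42 (log2 fold change -2.61, adjusted p = 1.87e-05). SLC30A7, which carries zinc into the Golgi, fell by 2.23. ELOVL5, an elongase of polyunsaturated fatty acids, read 11.19, 11.12 and 10.90 with Luc and 8.62, 8.53 and 8.16 with KD1, 6.19-fold lower (adjusted p = 1.93e-05).

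The other genes among the 20 with the largest falls lay between -1.93 and -2.22. They included the methionine sulfoxide reductase MSRB3, the dynein light chain DYNLT3, the ribosome assembly factor PNO1, the collagen chain COL5A1, the fibulin EFEMP1, the death receptor TNFRSF10A, the lysosomal amino acid transporter SLC38A9, the adhesion protein MPZL2, the peptide transporter subunit TAP2 and the G protein subunit GNG12. All 20 had adjusted p-values of at most 0.000151. A second, dimmer DYNLT3 probe went the other way by 0.42 without a call, and AMMECR1 was detected on 1 of 3 KD1 arrays.

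**Figure D2:**
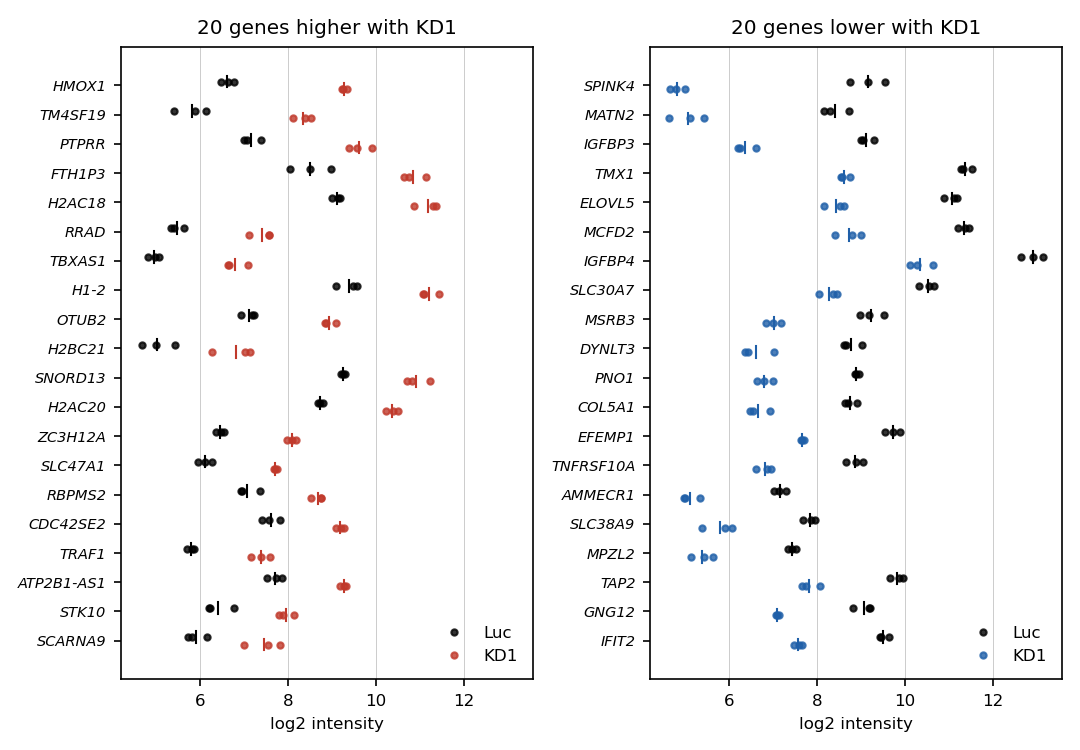
Log2 intensity (horizontal axis) on each array for the 20 genes with the largest rise (left) and the 20 with the largest fall (right), with Luc arrays in black, KD1 arrays in red or blue and group means as vertical ticks. Only genes whose 3 KD1 and 3 Luc arrays did not overlap were eligible, so the points stand apart in every row by selection. Rows run from HMOX1 at the top left to IFIT2 at the bottom right.

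KD1 was also tested against KD2 in the same fit, where 3029 genes differed (31.1%). The KD2 arrays took positions B, D and F of the slide, alternating with those of Luc, whereas the KD1 arrays took G, I and K. Slide position therefore changed along with the siRNA in this test as well, and its share was not tested. A difference between the siRNAs means here and below one between the KD1 and KD2 arrays, whatever its source. All of the 20 lower genes and 13 of the 20 higher ones differed between the siRNAs. These genes were picked for their distance from Luc on the same KD1 arrays, so their counts cannot be set against the share over all genes. TM4SF19 stood 2.40 above KD2 (adjusted p = 3.33e-05) and PTPRR 2.70 above it (adjusted p = 4.47e-05), and against Luc they were at 0.14 and -0.22 with KD2, neither called. MCFD2 differed between KD1 and KD2 by -2.62 (adjusted p = 6.28e-06) and was at 0.01 against Luc with KD2. EFEMP1 fell by 2.06 with KD1 and rose by 1.13 with KD2, with a difference between the siRNAs of -3.20 (adjusted p = 2.21e-06). Other leading genes were called with KD2 as well, against the same Luc arrays. HMOX1 was at 3.64 with KD2 (adjusted p = 3.06e-07), H2AC18 at 2.06 (adjusted p = 7.28e-05), TMX1 at -1.24 (adjusted p = 0.000545), IGFBP4 at -0.87 (adjusted p = 0.00718) and MATN2 at -0.79 (adjusted p = 0.0337). SPINK4 at -0.63 and IGFBP3 at -0.40 were not called with KD2 (adjusted p = 0.0612 and 0.105). HMOX1 was lower with KD1 than with KD2 (difference -0.98, adjusted p = 0.000391). The histone genes H2AC18, H1-2, H2BC21 and H2AC20 showed no call between the siRNAs, with differences of 0.01, -0.04, 0.13 and -0.29. KD1 and KD2 share the Luc arrays, so their changes from Luc are not independent of each other.

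Genes seen by several probes give a check within the arrays. Of 2307 genes with at least 2 tested probes, 698 had a call, and 83 were higher and 105 lower on every probe. In 494 only some probes were called and none opposed, and 16 were called in both directions. Among the genes higher on every probe, ranked by their weakest probe, were RRAD, H2AC18, the kinase HIPK2, the ubiquitin ligase component FBXO32, DPM3, a subunit of the mannosyl transferase that feeds protein glycosylation, GCLM, COXFA4L3 and the cytokine IL32. HIPK2 rose by 1.49 and 1.71 on its probes and FBXO32 by 1.46 and 1.52. Those lower on every probe were led by IGFBP3, AKIRIN1, the receptor ROR1, the phospholipid flippase ATP11B, the integrin chain ITGB2, the RNA-binding protein RO60, RAB11FIP2, a partner of the recycling GTPase RAB11, and the glutamine transporter SLC38A1. AKIRIN1 fell by 1.73 and 1.39, and RO60 by 1.33, 1.22 and 1.19. RPL34, a ribosomal protein, was the widest disagreement, at -0.96 on the brighter probe (adjusted p = 0.00103) and 2.79 on the other (adjusted p = 1.87e-05), so no direction is given for it.

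In some genes detection itself switched. There were 18 genes detected on all 3 KD1 arrays and no Luc array, of which 14 were called, while 147 were detected on all 3 Luc arrays and no KD1 array, 85 of them called. These genes passed the detection filter through a single group, so they had to differ, and the number called is no separate result. Every KD1 array also had fewer detected probes than any Luc array. ALDH4A1, a mitochondrial enzyme of proline breakdown, read 4.73, 4.83 and 4.84 with Luc and 6.42, 5.79 and 6.44 with KD1, and was at least 2.17-fold higher. WFDC3, ZNF248, SOHLH2 and CNIH2 were at least 2.02-fold, 1.90-fold, 1.88-fold and 1.71-fold higher (adjusted p = 0.00115, 0.00403, 0.00691 and 0.00759). On the other side, KDM4A, a demethylase of lysine 9 and lysine 36 of histone H3, read 6.17, 6.12 and 6.14 with Luc and 4.42, 4.95 and 4.62 with KD1, and was at least 1.88-fold lower (adjusted p = 0.000258). TRNP1, CCDC3 and AIF1L were at least 2.57-fold, 2.68-fold and 2.17-fold lower. Each of these bounds is set against the detection floor on the background-corrected scale. Fold changes of probes this dim shrink with a larger offset or with no background correction.

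Among the brightest genes the changes were small. H2BC12, HINT1, MTCH1, MDH2 and TKT were called higher by 0.43 to 1.01 and LDHA, ITGB1, AXL, H4C3 and SLC7A5 lower by 0.41 to 0.76. TKT, the transketolase of the pentose phosphate pathway, read 12.76, 12.76 and 13.01 with Luc and 13.88, 13.86 and 13.82 with KD1 (adjusted p = 0.000826). Of these 10 genes TKT and H4C3 kept their call in each of the 20 alternatives run. The LDHA call was lost in 13, among them median scaling and leaving out any of the 9 arrays (adjusted p up to 0.229), and that of HINT1 in 12 (adjusted p up to 0.108). MDH2 lost its call in 6, SLC7A5 in 5, and ITGB1, MTCH1 and H2BC12 in 3 each, while AXL lost it under median scaling alone. Of the lower calls, those of LDHA, ITGB1, AXL and SLC7A5 were the ones that median scaling ended.

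Interferon-stimulated genes encode antiviral proteins that cells make when type I interferon binds its receptor, through kinases and STAT and IRF transcription factors that bind a repeated GAAA element in their promoters. With KD1, 21 of 48 measured effectors fell (43.8%, against 11.4% of all genes) and none rose, with a median log2 fold change of -0.43 against 0.00 for all genes. IFIT2 read 9.64, 9.46 and 9.43 with Luc and 7.48, 7.60 and 7.65 with KD1, 3.82-fold lower (adjusted p = 1.93e-05). IFIT1, which like IFIT2 belongs to the family of proteins that bind viral RNA, read 9.30, 8.65 and 9.03 with Luc and 6.99, 7.17 and 7.03 with KD1, 3.81-fold lower (adjusted p = 0.000103). ISG15, a ubiquitin-like protein attached to other proteins, fell from 9.29, 9.18 and 9.21 to 7.81, 7.80 and 7.87 (log2 fold change -1.40, SE 0.11, adjusted p = 5.73e-05). In each of these the groups stood clear of one another. XAF1 and IFI44 fell by 1.53 and 1.31.

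The 27 members that were not called reached up to 0.31. Of 16 genes of the receptors, kinases and transcription factors that act upstream, 2 fell (12.5%, near the 11.4% of all genes) and none rose, with a median of -0.05. IRF7, a transcription factor that is itself induced by interferon, fell by 1.01 (adjusted p = 0.00401), though its second, dimmer probe at -0.73 was not called. IFNAR1, a chain of the type I receptor, fell by 0.50 (adjusted p = 0.0415), a call lost in 11 of the alternatives, among them the fit to the 6 arrays alone. Of 12 sensors of viral RNA and DNA, 1 rose and 1 fell, the latter a call that leaving out any Luc array or KD1 replicate 2 or 3 ended. Of 16 genes of MHC class I presentation, TAP2 alone was called here, while 3 were called higher under median scaling, with no background correction and on the deposited normalized values, and 1 without KD1 replicate 2. It read 9.96, 9.86 and 9.66 with Luc and 7.75, 8.06 and 7.65 with KD1 (log2 fold change -2.00, adjusted p = 4.12e-05), and its second probe fell by 0.88. The other 15 lay between -0.22 and 0.39.

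The KD1 and KD2 arrays differed for several of these genes. IFIT2, IFIT1, ISG15 and IFI44 were lower with KD1 than with KD2, with differences of -1.64, -1.16, -1.59 and -1.51 (adjusted p = 1.93e-05, 0.000727, 1.26e-05 and 0.000285). XAF1 did not differ by the test (difference 0.00, adjusted p = 0.992). IRF7 fell by 1.01 with KD1 and rose by 0.71 with KD2, with a difference of -1.72 (adjusted p = 0.000104). TAP2 differed from KD2 by -1.93, and with KD2 it was at -0.08 against Luc.

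The promoters of the interferon-stimulated genes show what these genes share in sequence. Windows from 250 bases before to 50 bases after the annotated start, from RefSeq on GRCh38.p14, were at hand for 39 of the 48 genes, with the first listed start taken for each gene, and were searched on both strands for GAAA followed by any 2 bases and again GAAA, the core of the interferon-stimulated response element. The element was found in 28 of 39 (71.8%), against 3.65% of all 27305 promoters and 2.90% of 8056 promoters of tested genes. It was in 12 of the 15 promoters of genes that fell and in 16 of the 24 of genes that were not called, so its presence did not separate the ones that fell. A match describes letters in this window and not a bound site. The windows of the 3 most lowered genes with a match are shown 5′ to 3′ on the gene's strand, with the matches in capitals, read as TTTC, 2 bases and TTTC where the element lies on the other strand. IFIT1 lies at chr10:89392373-89392672, ISG15 at chr1:1013247-1013546 and IFI44 at chr1:78649539-78649838, all on the plus strand.
IFIT1: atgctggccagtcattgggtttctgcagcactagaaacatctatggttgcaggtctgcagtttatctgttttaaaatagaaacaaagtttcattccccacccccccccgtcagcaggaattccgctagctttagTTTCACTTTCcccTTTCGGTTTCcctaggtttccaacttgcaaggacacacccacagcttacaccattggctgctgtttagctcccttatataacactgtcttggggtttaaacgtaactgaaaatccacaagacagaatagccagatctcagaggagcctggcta
ISG15: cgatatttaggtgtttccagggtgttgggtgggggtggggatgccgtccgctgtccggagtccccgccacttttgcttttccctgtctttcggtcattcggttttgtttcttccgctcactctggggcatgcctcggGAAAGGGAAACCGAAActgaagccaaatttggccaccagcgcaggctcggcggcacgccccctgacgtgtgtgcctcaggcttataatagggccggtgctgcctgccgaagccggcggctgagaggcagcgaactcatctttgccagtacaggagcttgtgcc
IFI44: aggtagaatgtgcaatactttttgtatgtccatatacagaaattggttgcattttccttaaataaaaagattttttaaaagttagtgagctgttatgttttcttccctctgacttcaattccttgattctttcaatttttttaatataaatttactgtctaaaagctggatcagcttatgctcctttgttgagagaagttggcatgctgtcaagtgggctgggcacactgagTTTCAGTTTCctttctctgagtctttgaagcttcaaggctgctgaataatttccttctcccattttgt
IFIT1 holds a pair of matches set close together, ISG15 a pair that overlap in 1 run of capitals, and IFI44 a single match nearer to its start.

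Of 28 measured collagens, laminins and other matrix proteins 17 fell (60.7%, against 11.4% of all genes) and none rose, with a median of -0.73. Beside MATN2, COL5A1 read 8.63, 8.91 and 8.71 with Luc and 6.92, 6.55 and 6.49 with KD1, 4.27-fold lower (adjusted p = 5.18e-05), and EFEMP1 read 9.55, 9.74 and 9.88 with Luc and 7.70, 7.63 and 7.65 with KD1 (adjusted p = 4.12e-05). COL8A1, a short-chain collagen, was the brightest of the leading members, at 12.15, 12.14 and 12.32 with Luc and 10.82, 10.53 and 10.69 with KD1 (log2 fold change -1.53). COL6A3 fell by 1.64 to a level detected on 1 of 3 KD1 arrays. TNC, the matrix glycoprotein tenascin C, fell by 0.75 (9.41, 9.01 and 9.28 against 8.49, 8.70 and 8.27, adjusted p = 0.00989), and its second probe was at -0.07 and not called. TNC was higher with KD1 than with KD2 by 1.08 (adjusted p = 0.000815). COL5A1 was also lower with KD2 against Luc, at -0.94 (adjusted p = 0.00248). COL8A1 and COL6A3 were at 0.13 and 0.30 with KD2, neither called, and differed between KD1 and KD2 by -1.66 and -1.94.

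Of 18 enzymes that hydroxylate and cross-link collagen 9 fell (50%, against 11.4% of all genes) and none rose, with a median of -0.53. LOX, the lysyl oxidase that starts collagen cross-links, read 9.72, 9.82 and 9.84 with Luc and 8.51, 8.38 and 8.33 with KD1. It fell by 1.39 (SE 0.12, adjusted p = 9.9e-05). LOXL1 and LOXL4, its relatives, fell by 0.90 and 0.81, and the lysyl hydroxylases PLOD2 and PLOD1 by 0.70 and 0.65. LOX differed from KD2 by -1.58 (adjusted p = 1.99e-05), whereas LOXL4 stood 1.47 above it (adjusted p = 0.000489). The LOXL4 call was lost when Luc replicate 1 or 2 or KD1 replicate 3 was left out (adjusted p up to 0.0664), and that of LOXL1 on the deposited normalized values (adjusted p = 0.0578).

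Of 28 measured proteases of the matrix and their inhibitors, taken as 1 list, 13 fell (46.4%, against 11.4% of all genes) and 1 rose. Among inhibitors, CST1, a secreted cystatin, read 8.58, 8.47 and 8.93 with Luc and 6.83, 6.75 and 6.70 with KD1 (log2 fold change -1.90, adjusted p = 4.37e-05), while with KD2 it rose by 4.25, the widest split between the siRNAs among the named genes (difference -6.14, adjusted p = 7.29e-09). SERPINE2, an inhibitor of serine proteases, fell by 1.38 and TIMP2, an inhibitor of metalloproteinases, by 1.2 on its brighter probe, with -0.12 and no call on the other. Among proteases, MMP9, a gelatinase, read 6.23, 6.06 and 6.68 with Luc and 5.14, 4.95 and 4.79 with KD1, where it was detected on no array, and was at least 2.13-fold lower (adjusted p = 0.000768). MMP9 passed the detection filter through the Luc arrays alone, so it had to differ to be tested. With KD2 it rose by 2.33, with a difference between the siRNAs of -3.69 (adjusted p = 2.21e-06). MMP1, the collagenase, was at 0.03 with overlapping groups (adjusted p = 0.952).

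Receptors and membrane structures that meet the matrix fell more often than they rose. Of 28 integrins and focal adhesion genes 6 fell (21.4%) and 2 rose (7.14%), against 11.4% and 8.43% of all genes. With an offset of 50 or on the deposited normalized values 10 fell. The integrin chains ITGB2, ITGAV and ITGA2 fell by 1.39, 1.04 and 1.01, and PXN, the adaptor paxillin, rose by 0.81. ITGB2 was higher with KD1 than with KD2 by 1.00 (adjusted p = 0.0108). Caveolae are flask-shaped pits of the plasma membrane made by caveolins and cavins, and 4 of the 9 measured genes for them fell (44.4%) with none higher. CAV2 read 10.11, 10.12 and 10.46 with Luc and 8.50, 8.26 and 8.35 with KD1, 3.62-fold lower (adjusted p = 5.26e-05), and its other probes fell by 1.73 and 0.73. CAVIN2 and CAVIN1 fell by 1.58 and 0.74. CAV1 fell by 0.49, a call lost under median scaling and without Luc replicate 1 or 2 or KD1 replicate 3. The second CAV1 probe, at -0.49, was not called (adjusted p = 0.0556). With KD2, CAV2 rose by 0.85, with a difference between the siRNAs of -2.71 (adjusted p = 3.6e-06).

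Markers of epithelial and mesenchymal state did not move against each other. Of 15 epithelial genes measured 6 fell (40.0%, against 11.4% of all genes) and none rose. The largest falls were those of the desmosomal protein PKP2 at -0.84 and the keratin KRT7 at -0.77. Leaving out the third array of Luc or of KD1 gave 2 lower calls. Leaving out the first array of Luc or either of the other KD1 arrays gave 3. Of 17 mesenchymal genes 4 fell (23.5%) and none rose, with a median of -0.03 that turned positive under median scaling. NT5E, the surface enzyme that makes adenosine, read 11.20, 11.35 and 11.57 with Luc and 9.65, 10.15 and 9.76 with KD1 (log2 fold change -1.52, adjusted p = 0.000345). VIM, the mesenchymal intermediate filament vimentin, read 14.19, 14.23 and 14.50 with Luc and 13.99, 14.07 and 14.10 with KD1 and was not called (log2 fold change -0.25, SE 0.13, adjusted p = 0.219). CDH1, the epithelial cadherin, was detected on 1 Luc array and no KD1 array and was not tested.

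Of 10 measured IGF binding proteins, receptors and linked genes 6 fell (60.0%, against 11.4% of all genes) and none rose, with a median of -0.91. After IGFBP3 and IGFBP4, IGFBP6 fell from 9.76, 9.92 and 10.24 to 8.82, 8.79 and 8.82 (adjusted p = 0.000825), IRS1, the docking protein of the insulin and IGF receptors, fell by 1.1, and IGF2BP3, an mRNA-binding protein, by 1.05. In the TGF-beta pathway 6 of 22 genes fell (27.3%) and 1 rose. The ligand TGFB2 fell by 1.51, the receptors TGFBR2 and BMPR2 by 1.16 and 0.89 and the target ID1 by 0.91, while SMAD7, the inhibitor that blocks the receptors, rose by 1.00 (adjusted p = 0.00126), each on its brightest probe. Dim second probes of SMAD7 at 0.34 and of TGFBR2 at 0.04 were not called, and a brighter second TGFBR2 probe fell by 1.00. Of 21 targets of the coactivator YAP 7 fell (33.3%) and 1 rose, but the median was 0.02. F3, tissue factor, which starts coagulation, fell by 1.49 among them, and by 1.02 on its second probe.

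**Figure D3:**
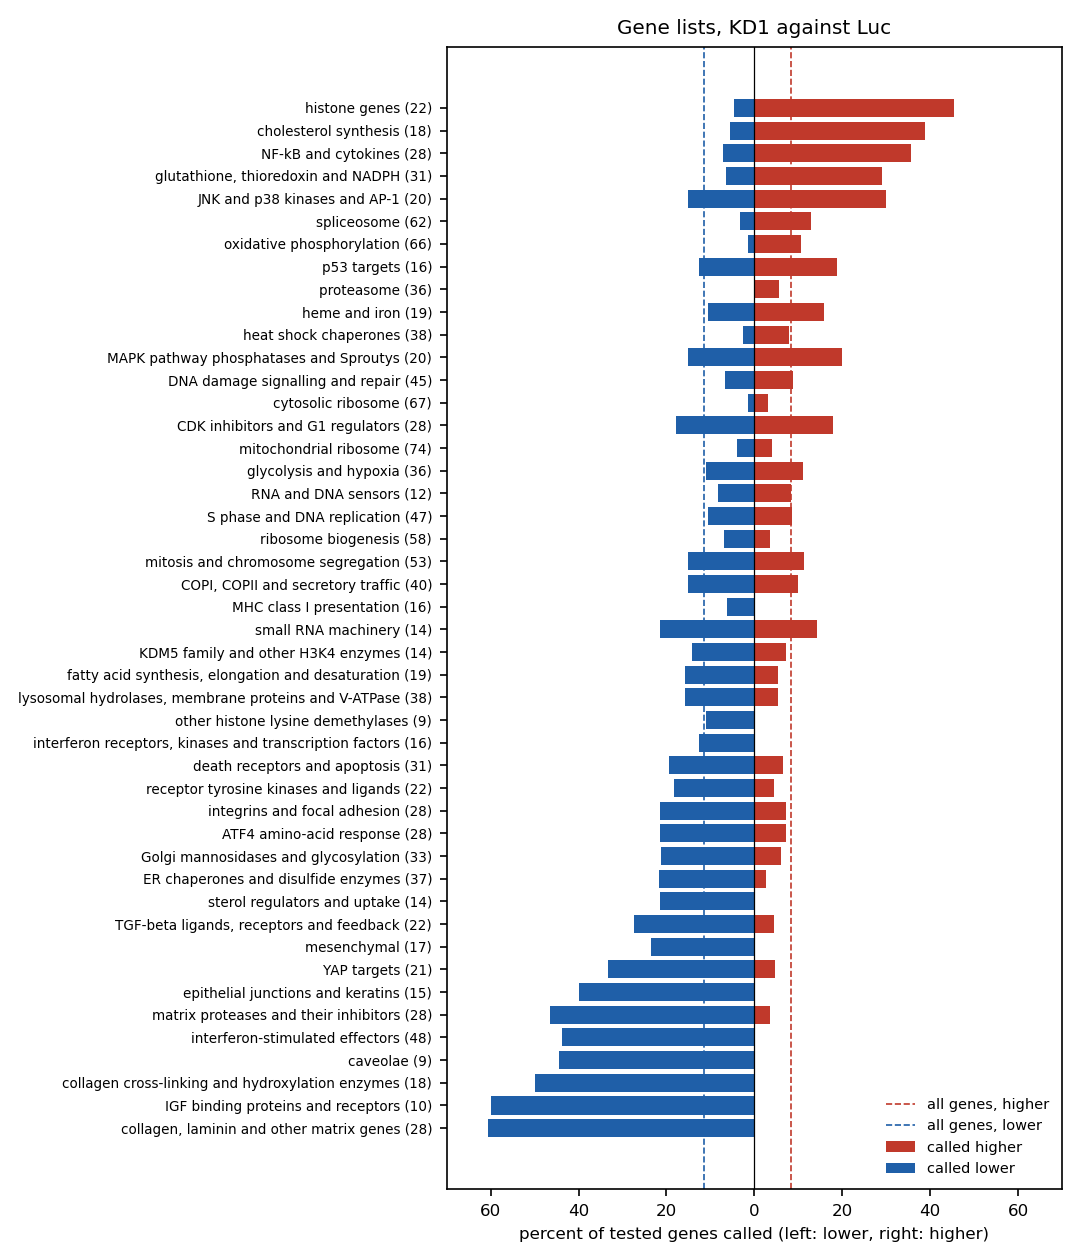
Percent of the tested genes of each list called lower (blue, to the left) and higher (red, to the right) with KD1, with the number tested in brackets and dashed lines at the shares over all genes (11.4% lower, 8.43% higher). Matrix genes, IGF binding proteins and collagen cross-linking and hydroxylation enzymes extend furthest past the lower line. Histone and cholesterol synthesis genes extend furthest past the higher one.

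Of 22 measured histone genes 10 rose (45.5%, against 8.43% of all genes) and 1 fell, with a median of 0.60. Most histone genes are transcribed in S phase and their mRNAs lack a poly(A) tail, while a subset also gives tailed transcripts. H2AC18 read 9.14, 9.19 and 8.99 with Luc and 11.37, 10.86 and 11.30 with KD1, 4.19-fold higher (adjusted p = 9.76e-05), and its second probe rose by 1.82. H1-2, a linker histone, read 9.57, 9.47 and 9.09 with Luc and 11.10, 11.07 and 11.43 with KD1, and H2AC20 read 8.68, 8.72 and 8.80 with Luc and 10.39, 10.23 and 10.50 with KD1. H2AJ rose by 1.00. H4C3 was the member that fell, by 0.76 from one of the highest levels on the array (13.89, 13.96 and 13.98 against 13.18, 13.16 and 13.20). Histone genes are near-identical copies, so a probe may read several of them.

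Of 47 measured replication genes 4 rose (8.51%) and 5 fell (10.6%), close to the shares over all genes, with a median of 0.01. Of 53 genes of mitosis 6 rose (11.3%) and 8 fell (15.1%), and of 45 genes of DNA repair 4 rose (8.89%) and 3 fell (6.67%). Over all genes 8.43% rose and 11.4% fell. The list counts were smaller without single arrays. No replication gene was called lower without Luc replicate 2, and no repair gene higher without KD1 replicate 1. Without Luc replicate 2 or KD1 replicate 3, 1 mitosis gene was called higher. RPA1, which coats single-stranded DNA, read 10.19, 10.40 and 10.07 with Luc and 11.32, 11.46 and 11.47 with KD1, and rose by 1.36 on its second probe as well (adjusted p = 0.000386 for the first). KIF20A, a kinesin of cytokinesis, rose by 0.77, and HMMR, a spindle protein, fell by 0.96, with -0.61 and no call on its second probe.

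Of 28 regulators of G1, 5 rose and 5 fell (17.9% each, against 8.43% higher and 11.4% lower over all genes). The lower count was 1 to 4 when single arrays were left out, with 1 when Luc replicate 1 or 2 or KD1 replicate 1 or 3 was the one left out, and median scaling gave 7 higher and 2 lower. CDKN1A, the CDK inhibitor p21, read 10.43, 10.63 and 10.56 with Luc and 11.23, 11.20 and 11.28 with KD1. All KD1 arrays lay above all Luc arrays, a rise of 0.70 (SE 0.11, adjusted p = 0.00274). CDKN1B, the inhibitor p27, fell by 0.42 (adjusted p = 0.0338), a call lost in 9 alternatives, the fit to the 6 arrays alone among them, and its second probe at -0.31 was not called. MLX, a partner of the glucose-sensing factors MondoA and ChREBP, rose by 1.41, CCNA1, the cyclin best known from the testis, by 1.11 and CCND2, a G1 cyclin, by 0.86. MXI1, an antagonist of MYC, fell by 0.92. CCNA1 was lower with KD1 than with KD2 (difference -1.49, adjusted p = 4.26e-05), as was CDKN1A (difference -0.52, adjusted p = 0.00694). Of 16 targets of p53, 3 rose (18.8%) and 2 fell (12.5%).

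Genes of glutathione, thioredoxin and NADPH supply are known in part as targets of NRF2, the factor that cells release from KEAP1 under oxidative or electrophilic stress and that binds antioxidant response elements. Of 31 measured, 9 rose (29.0%) and 2 fell (6.45%), against 8.43% and 11.4% of all genes. Their median was 0.23, and 14 rose under median scaling. GCLM, the modifier subunit of the enzyme that limits glutathione synthesis, read 9.18, 9.35 and 9.26 with Luc and 10.86, 10.44 and 10.59 with KD1, 2.58-fold higher (adjusted p = 0.000224), with a rise of 1.39 on its second probe. PGD, an enzyme of the pentose phosphate pathway that makes NADPH, read 9.74, 9.75 and 9.78 with Luc and 10.90, 10.91 and 11.13 with KD1, 2.34-fold higher (adjusted p = 0.000195). MGST1, a membrane glutathione transferase, rose by 1.22 and GCLC, the catalytic partner of GCLM, by 1.04. Of the members that fell, MSRB3 read 8.99, 9.19 and 9.53 with Luc and 7.01, 7.19 and 6.85 with KD1 (log2 fold change -2.22), and PRDX4, a peroxidase of the endoplasmic reticulum, fell by 0.49 (adjusted p = 0.0464), the lower count being 1 when any array but Luc replicate 3 was left out. NFE2L2, the gene of NRF2, was at -0.38 (adjusted p = 0.166) and KEAP1 at 0.25 (adjusted p = 0.216), neither called; these, with PRDX4, were singled out after their values were seen.

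Among heme and iron genes 3 of 19 rose (15.8%, against 8.43% of all genes) and 2 fell (10.5%, near the 11.4% of all genes). Beside HMOX1 and FTH1P3, TFRC, the transferrin receptor that brings iron into cells, read 11.81, 11.98 and 11.79 with Luc and 12.98, 12.95 and 12.68 with KD1 (log2 fold change 1.01, adjusted p = 0.00111). SLC40A1, the iron exporter ferroportin, fell from 7.03, 7.00 and 7.12 to 5.57, 5.40 and 5.14 (log2 fold change -1.68, adjusted p = 8.3e-05), and SLC11A2, an importer of divalent metals, fell by 0.90. When no background was subtracted 5 fell. SLC40A1 and SLC11A2 differed from KD2 by -1.35 and -1.61, and TFRC by 0.49.

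The promoters of the antioxidant and heme genes were searched for TGACNNNGC, the core of the antioxidant response element, in the same RefSeq windows on both strands. It was present in 7 of 38 (18.4%), against 13.6% of all promoters and 15.6% of those of tested genes. It was found in 4 of the 8 promoters of genes that rose, in none of 4 of genes that fell and in 3 of 26 of genes not called, and these numbers are small. The 3 genes with the largest rise among those with a match are shown, matches in capitals, read as GCNNNGTCA where the element lies on the other strand. GCLM lies at chr1:93909381-93909680 on the minus strand, PGD at chr1:10398814-10399113 and TXNRD1 at chr12:104215529-104215828, both on the plus strand.
GCLM: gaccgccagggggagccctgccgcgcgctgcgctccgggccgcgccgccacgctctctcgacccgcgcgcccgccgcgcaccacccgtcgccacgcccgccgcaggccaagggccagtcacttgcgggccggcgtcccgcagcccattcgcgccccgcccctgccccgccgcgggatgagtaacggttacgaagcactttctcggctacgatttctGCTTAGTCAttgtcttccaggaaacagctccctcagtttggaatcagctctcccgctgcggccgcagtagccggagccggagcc
PGD: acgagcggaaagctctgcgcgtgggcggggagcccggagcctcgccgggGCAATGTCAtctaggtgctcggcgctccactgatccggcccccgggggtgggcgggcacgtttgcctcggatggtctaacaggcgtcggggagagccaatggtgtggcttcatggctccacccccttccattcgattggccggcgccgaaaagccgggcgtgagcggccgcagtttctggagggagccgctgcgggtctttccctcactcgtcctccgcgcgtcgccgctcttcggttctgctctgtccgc
TXNRD1: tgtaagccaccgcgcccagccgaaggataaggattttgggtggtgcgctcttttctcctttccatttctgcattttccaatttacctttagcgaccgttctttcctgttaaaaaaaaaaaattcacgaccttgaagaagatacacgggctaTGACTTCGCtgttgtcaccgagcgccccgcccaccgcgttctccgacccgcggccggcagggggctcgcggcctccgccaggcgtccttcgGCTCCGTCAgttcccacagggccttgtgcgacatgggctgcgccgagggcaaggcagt
GCLM and PGD hold 1 match each, and TXNRD1, a thioredoxin reductase that rose by 0.72, holds a pair that do not overlap.

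**Figure D4:**
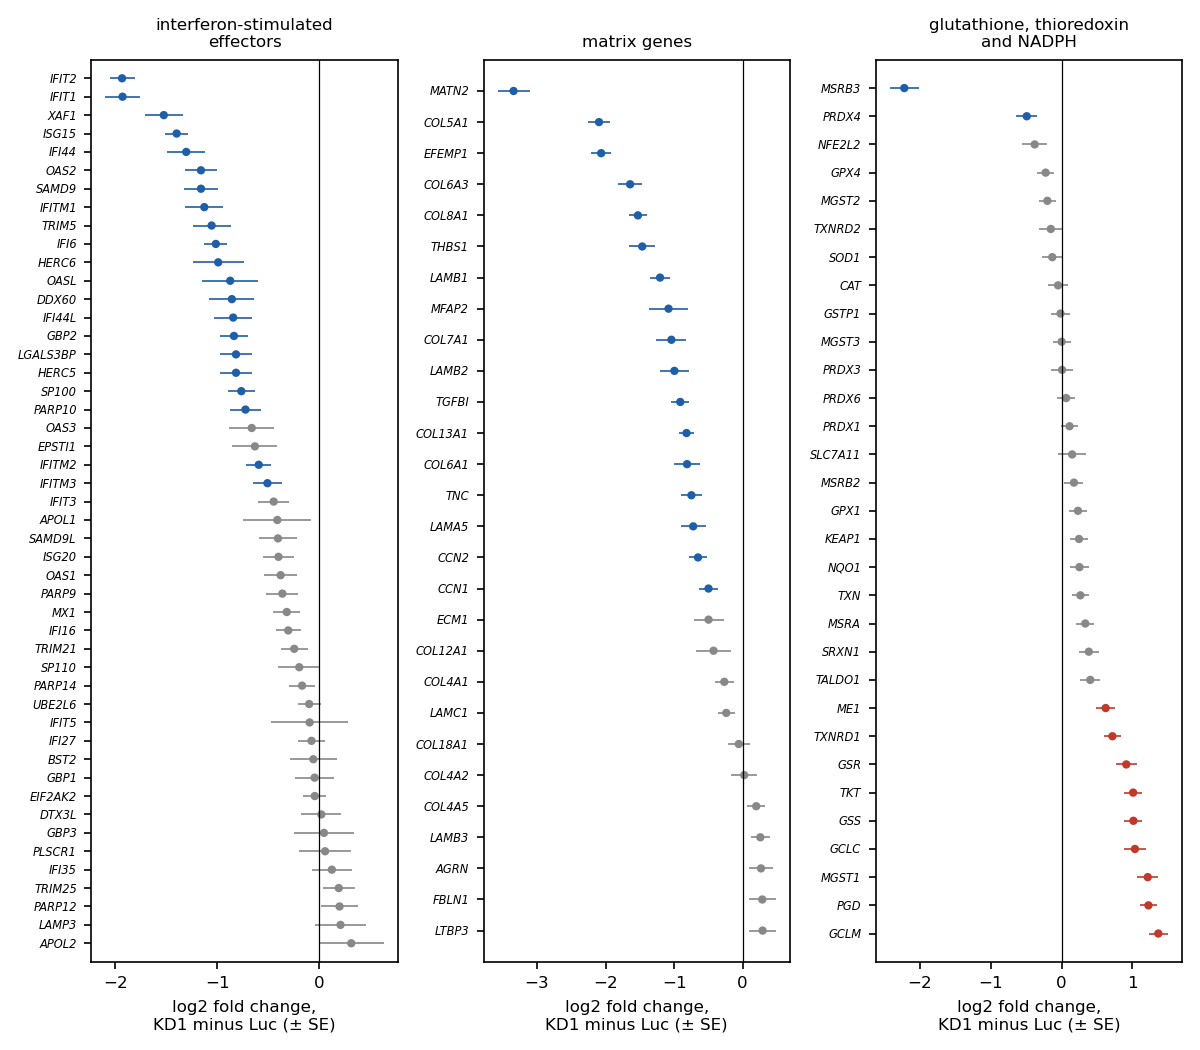
Log2 fold change of KD1 over Luc with its SE (horizontal axis) for every tested member of 3 lists, with genes called lower in blue, called higher in red and not called in grey. Interferon-stimulated effectors and matrix genes reach down to -1.93 and -3.34 with no call on the higher side, whereas 9 glutathione, thioredoxin and NADPH genes are called higher and MSRB3 is alone far to the left.

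Cholesterol synthesis is run by enzymes that the factor SREBP2 switches on together when sterols are low. Of 18 measured, 7 rose (38.9%, against 8.43% of all genes) and 1 fell (5.56%, against 11.4%), with a median of 0.37. Without Luc replicate 3 the number that rose was 4. HMGCS1, which makes the precursor of mevalonate, read 8.87, 8.59 and 9.13 with Luc and 10.14, 9.79 and 9.95 with KD1, 2.13-fold higher (adjusted p = 0.00572). IDI1, DHCR7 and SQLE, later enzymes of the pathway, rose by 0.97, 0.81 and 0.78, and TM7SF2, a sterol reductase, fell by 0.70. HMGCS1, IDI1 and DHCR7 stood 1.12, 0.83 and 0.84 above KD2. Of 14 genes of sterol sensing, uptake and export none rose and 3 fell (21.4%, against 11.4% of all genes). Those that fell were MYLIP, the ligase that degrades the LDL receptor, at -0.86, the cholesterol exporter ABCA1 at -0.78 and the lysosomal lipase LIPA at -0.63. The sterol response element core TCACNCCAC was found in 1 of 28 promoters of both lists, that of SREBF2, and in 1.15% of all promoters.

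Of 19 genes of fatty acid synthesis, elongation and desaturation 1 rose (5.26%) and 3 fell (15.8%), against 8.43% and 11.4% of all genes. None rose when a Luc array, KD1 replicate 1 or 2 or KD2 replicate 3 was left out. HSD17B12, which acts with the elongases, fell by 0.78, and by 0.82 on its second probe. Its level with KD1 did not differ by the test from that with KD2 (difference -0.05), whereas that of ELOVL5 did (difference -1.89, adjusted p = 4.35e-05).

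Regulators of inflammation and stress kinases showed changes in both directions. Of 28 genes of NF-kB and its cytokine targets 10 rose (35.7%) and 2 fell (7.14%), against 8.43% and 11.4% of all genes, with a median of 0.36. IL32 read 7.77, 7.81 and 7.75 with Luc and 8.81, 9.10 and 9.09 with KD1, a rise of 1.23, and NFKBIB, an inhibitor that holds NF-kB in the cytoplasm, rose by 1.06. The chemokine CXCL1, detected on 1 of 3 Luc arrays, rose by 1.09 (adjusted p = 0.0287), a call lost when Luc replicate 1 or 2 or KD1 replicate 1 or 3 was left out (adjusted p up to 0.0999). The cytokine IL11 and the chemokine CCL5 fell by 1.51 and 1.29. IL11 on KD1 replicate 3, at 7.03, stood above the other KD1 arrays at 6.04 and 6.12.

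Of 20 genes of the JNK and p38 kinases and AP-1 factors 6 rose (30%) and 3 fell (15%), against 8.43% and 11.4% of all genes. The number that rose was 1 without Luc replicate 2 or KD1 replicate 3 and 2 without Luc replicate 1, Luc replicate 3 or KD1 replicate 1, and 1 fell without Luc replicate 1 or 2. MAPK8, the gene of JNK1, read 7.83, 7.91 and 7.90 with Luc and 5.96, 6.59 and 6.09 with KD1, 3.18-fold lower (adjusted p = 0.000621). MAP3K5, a kinase that activates JNK, rose by 0.83. Of 20 MAP kinase phosphatases and Sprouty genes 4 rose (20%) and 3 fell (15%), and 7 rose under median scaling. DUSP5, a nuclear phosphatase of ERK, read 11.74, 11.78 and 11.87 with Luc and 12.77, 12.96 and 12.89 with KD1 (log2 fold change 1.07, adjusted p = 0.000386). DUSP8, detected on no Luc array, was at least 1.40-fold higher, and DUSP14 rose by 0.88. The ERK-induced factor EGR1 fell by 0.97.

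Receptors of the death ligand TRAIL moved apart. TNFRSF10A, a receptor that carries a death domain, read 8.66, 8.90 and 9.04 with Luc and 6.94, 6.61 and 6.87 with KD1, 4.16-fold lower (adjusted p = 5.82e-05). TNFRSF10B, the other receptor with a death domain, had a mean log2 intensity of 10.24 with Luc and 11.49 with KD1, 2.38-fold higher (adjusted p = 0.000345), with a rise of 1.1 on its second probe. TNFRSF10D, a decoy receptor with a truncated death domain, rose by 1.03, and TNFSF10, the gene of TRAIL itself, fell by 1.07. Over the whole list of death receptors and apoptosis genes 2 of 31 rose (6.45%) and 6 fell (19.4%), against 8.43% and 11.4% of all genes. The lower count was 2 without Luc replicate 2 and 3 without KD1 replicate 1 or 3. TNFRSF10A was lower with KD1 than with KD2 (difference -1.35, adjusted p = 0.00025), while TNFRSF10B and TNFSF10 did not differ by the test (differences -0.08 and 0.26).

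Of 37 chaperones and disulfide enzymes of the endoplasmic reticulum 8 fell (21.6%) and 1 rose, with a median of -0.06 that turned to 0.02 under median scaling. Over all genes 11.4% fell and 8.43% rose. After TMX1, CLGN, a chaperone of the calnexin family, fell by 1.34, the co-chaperone DNAJB11 by 1.07, TMX4, a relative of TMX1, by 0.86 and XBP1, the transcription factor of the unfolded protein response, by 0.81. Of 33 Golgi glycosylation genes 7 fell (21.2%) and 2 rose, led by the mannosidase MAN1A2 at -1.40. Of 40 genes of vesicle coats and secretory traffic 6 fell (15%) and 4 rose (10%). SEC23A, a component of the COPII coat, was at -0.99 and TMED7, a cargo receptor, at -0.97. Of 38 lysosomal genes 6 fell (15.8%) and 2 rose (5.26%), and ARSB, a sulfatase, fell by 1.31. None of the higher calls for endoplasmic reticulum, Golgi and lysosomal genes held without Luc replicate 1. The amino acid response driven by ATF4 had 6 of 28 genes lower (21.4%) and 2 higher (7.14%), and 3 lower without Luc replicate 2 or KD1 replicate 3. Its leading members were the transporter SLC1A5 at -0.79, the serine synthesis enzyme PSPH at -0.73 and the transcription factor ATF5 at 0.85.

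The large housekeeping lists held few calls. Of 67 cytosolic ribosomal proteins 2 were called higher and 1 lower on the brightest probe, the latter being RPL34, for which the probes disagree. Of 74 mitochondrial ribosomal proteins 3 rose and 3 fell (4.05% each), and of 36 proteasome genes 2 rose (5.56%) and none fell. Of 38 heat shock chaperones 3 rose (7.89%) and 1 fell (2.63%). Over all genes 8.43% rose and 11.4% fell. Such small counts shifted when single arrays were left out. No heat shock chaperone was called higher without Luc replicate 2 or KD1 replicate 1 or 3, and for mitochondrial ribosomal proteins 1 was higher and 1 lower without Luc replicate 2 or 3 or KD1 replicate 3, and 2 higher and none lower without Luc replicate 1. On the deposited normalized values 8 heat shock chaperones were higher and 2 lower. Single members stood out within them, with CCT5, a subunit of the cytosolic chaperonin, at -1.14 and the proteasome subunit PSMD3 at 0.95. PNO1 read 8.86, 8.88 and 8.96 with Luc and 6.78, 7.00 and 6.62 with KD1 (adjusted p = 1.87e-05), while of 58 genes of ribosome biogenesis 4 fell and 2 rose. Of these 4, POLR1D, a subunit of RNA polymerases I and III, fell by 1.23 on its brighter probe from 13.14, 13.14 and 13.14 to 11.86, 12.11 and 11.77, but its second probe was at -0.18 and not called.

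Of 66 nuclear genes of oxidative phosphorylation 7 rose (10.6%, near the 8.43% of all genes) and 1 fell (1.52%, against 11.4%), with a median of 0.14. The number that rose was 3 without Luc replicate 2, Luc replicate 3 or KD1 replicate 3 and 11 under median scaling. UQCR10, a subunit of complex III, rose by 1.11 on its brightest probe, with 0.63 and 0.13 and no call on the others. Of 62 spliceosome genes 8 rose (12.9%, against 8.43% of all genes) and 2 fell (3.23%, against 11.4%). Without Luc replicate 1, Luc replicate 2 or KD1 replicate 3, 4 rose, and 5 did without Luc replicate 3. SF3B5, a subunit of the U2 particle, read 9.72, 9.26 and 9.57 with Luc and 10.87, 11.06 and 11.08 with KD1, 2.81-fold higher (adjusted p = 0.000207).

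Chromatin enzymes of the same mark changed little. Of 14 measured members of the KDM5 family and other H3K4 enzymes 1 rose (7.14%) and 2 fell (14.3%), with a median of 0.14. Over all genes 8.43% rose and 11.4% fell. KDM5B, a close relative of KDM5A, read 9.87, 10.02 and 9.97 with Luc and 10.50, 10.40 and 10.33 with KD1, a rise of 0.45 (SE 0.11, adjusted p = 0.0217). The call was lost without Luc replicate 1 or KD1 replicate 1 (adjusted p up to 0.0736). DPY30 and ASH2L, core subunits of the H3K4 methyltransferase complexes, fell by 0.54 and 0.46 (adjusted p = 0.0313 and 0.0331), and both calls ended under median scaling and when a Luc array or KD1 replicate 1 or 3 was left out. KDM4A was the only one of 9 other histone demethylases called.

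Of 14 genes of the small RNA machinery, on which an siRNA depends, 2 rose (14.3%) and 3 fell (21.4%). Over all genes 8.43% rose and 11.4% fell. DICER1, the nuclease that cuts microRNA precursors, read 9.00, 9.30 and 9.54 with Luc and 8.17, 8.04 and 7.76 with KD1, 2.44-fold lower (adjusted p = 0.0047). The Argonaute genes AGO1 and AGO2 were higher by 0.88 and 0.67, the latter a call lost without replicate 1 of either group or replicate 3 of KD1 and in the fit to the 6 arrays alone (adjusted p up to 0.0915). TSNAX, which helps to clear the passenger strand of an siRNA, fell by 0.82.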

How the data were processed

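The authors deposited bead intensities as linear values before any normalization or background subtraction, beside a detection p-value per probe and array, per the file headers and the values. They also deposited series values on a log2 scale, quantile-normalized as the values show, with the same median of 7.602 on every array. The submitters' processing notes name lumi, with neither its version nor its steps.

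For this comparison neqc in limma 3.58.1 (R 4.3.3) was run on the intensities, with a normal-exponential background model that took its negative controls from the detection p-values, an offset of 16, quantile normalization of all 9 arrays and log2. A mean per group was fitted to the 9 arrays with lmFit and eBayes (6 residual and 10.3 total degrees of freedom, median residual SD 0.215). The main contrast was KD1 minus Luc and the other KD1 minus KD2, both two-sided with Benjamini-Hochberg adjustment over the 14801 probes, and the procedure was tested on simulated data. No exact permutation test was run, since 3 arrays against 3 allow no two-sided p under 0.1. Of all probes 28094 had 1 symbol, updated through Entrez identifiers with RefSeq names for 28055 and kept as given for 39, while 13 had several and 20692 none.

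Genes were named by rule. Named were the 20 most changed in each direction without overlap of the arrays, up to 5 called genes per list, the 8 in each direction called on every probe, the 5 brightest, the 5 that switched detection, and a fixed set of the KDM5 genes, CDK inhibitors (CDKN1A, CDKN1B), TNC, MMP1, CDH1, VIM, ISG15, IFIT1, ESR1 and PTPRC where measured. The members, this rule, the 46 gene lists (1668 genes) and the 4 marker lists were chosen with earlier results of these data known. A lower bound on a fold was set against the detection floor of the arrays without detection. The alternatives were median scaling, no background correction, the deposited log2 values, other detection filters, an offset of 50, the 6 arrays alone, a replicate block, an intensity trend, 1 probe per symbol and leaving out each array.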

Additional observations from a re-analysis of the deposited data

How the results depend on the processing

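The count of called probes was 2713, with 1193 higher, 1520 lower and 602 changed by at least 1 on the log2 scale. That last count depended on how dim signals were treated, at 156 with no background correction, 101 on the deposited series values and 278 with an offset of 50, and the named genes' changes on the series values were 66.4% of their main size in the median. With no detection filter 795 probes were higher. Leaving out each array in turn gave 1768 to 2560 called, 762 to 1125 higher, 1006 to 1440 lower and 598 to 655 changed by at least 1. The lowest count of calls came without Luc replicate 2, at 1768. Without Luc replicate 1 the count of higher probes was 789. The replicate block gave 2557 calls, 1120 higher and 1437 lower. Deviations from the group means of same-numbered Luc and KD1 arrays correlated by -0.013, -0.017 and 0.050, so no shared deviation was seen. These values cannot tell whether same-numbered arrays were handled together. Of 248 named genes with a call, 186 kept it in every alternative run and none of the 250 reversed in any. Calls were lost most often without Luc replicate 1 (48 genes), KD1 replicate 3 (45) and Luc replicate 2 (43). Probes near background had values close to the detection floor, which limits what can be said of switched genes.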
